A study of Mus musculus with 20 samples.

Results

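The 39 protein-coding Hox genes of clusters A to D were followed across 20 poly(A) RNA libraries of mouse embryo and embryonic brain sections. Members were taken by symbol, as Hox, a cluster letter from a to d and a paralog number, from expression tables that together list 38414 genes. Cluster A holds 11 members, cluster B 10, and clusters C and D 9 each. Of the 39, the fixed embryo table lists 39, the table labelled fresh-frozen embryo 23, and each of the E12.5 and E16.5 brain tables holds 35. Hoxc11, Hoxc12, Hoxd10 and Hoxd12 are the members that the brain tables do not list.

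The libraries come from MAPIT-seq, in which a primary antibody and a guinea pig anti-rabbit secondary antibody recruit the fusion rAPOBEC1-pAG-hADAR2 to a protein in tissue sections. The fusion's cytidine deaminase leaves C-to-T changes in nearby RNA, and its adenosine deaminase leaves A-to-G ones. The target was G3BP1, an RNA-binding protein of stress granules, and rabbit IgG was the antibody control. All animals are labelled C57BL/6J and wild type. The 10 groups of 2 libraries are IgG, anti-G3BP1 and untreated sections of E10.5 embryo labelled fixed, the same 3 groups of E10.5 embryo labelled fresh-frozen, and IgG and anti-G3BP1 sections of E12.5 and of E16.5 brain, which are labelled fresh-frozen too. Every antibody library carries 0.2% formaldehyde fixation in its label and no untreated library does, so antibody treatment and that fixation cannot be told apart. The labels do not say whether libraries of a group come from separate animals, so every p-value reflects the spread among these libraries alone, which may be technical.

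Hox genes encode homeodomain transcription factors that give cells their position along the body axis. Within a cluster, genes at the 3′ end (paralog group 1) are switched on first and reach furthest forward, into the hindbrain, and genes at the 5′ end (paralog group 13) act in the tail, genital region and digits. In the nervous system their domain ends in the hindbrain, and forebrain and midbrain are normally free of Hox transcripts.

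In the GENCODE M21 annotation of GRCm38, the build the submitters name, cluster A spans chr6:52155590-52260880 on the minus strand. Cluster B spans chr11:96194316-96368256, cluster C chr15:102921103-103036852 and cluster D chr2:74668310-74765142, all on the plus strand. Of the 39 genes, 23 overlap another annotated gene and 14 overlap a gene on the opposite strand. Whether the authors' counting used strand is not given in the sources used here, so levels of overlapped members such as Hoxa3, Hoxb3 and Hoxd3 may include reads of their neighbours. Transcripts of different members are also alike. The 39 coding bases around the third helix of the homeodomain, which contacts DNA, are shown because they are the stretch that members share most visibly. Capitals mark bases that differ from Hoxa5.
Hoxa5: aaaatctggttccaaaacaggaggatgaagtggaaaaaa
Hoxb8: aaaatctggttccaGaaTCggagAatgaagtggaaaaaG
Hoxb9: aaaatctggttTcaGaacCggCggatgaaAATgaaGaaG
Hoxd13: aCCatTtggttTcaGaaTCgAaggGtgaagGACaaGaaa
Members of paralog groups 4 and 5 differed from Hoxa5 at up to 7 of these bases, those of groups 6 to 8 at 4 to 8, and those of groups 9 to 13 at 6 to 13. The longest exact stretch shared by transcripts of members that do not overlap was 52 bases, between Hoxa6 and Hoxb4, and 2 of 733 such pairs shared 50 bases or more.

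Levels are in TPM, a relative abundance corrected for transcript length that sums to 1000000 in each library. In the fixed embryo the members made up 2426 to 3453 TPM in all, and 36 or 37 of the 39 reached 1 TPM, depending on the library. In E16.5 brain they summed to 525 to 669 TPM. In E12.5 brain the sum was 3.06 to 11.9 TPM and in the libraries labelled fresh-frozen embryo 0.851 to 10.9 TPM. These sums did not overlap between the fixed embryo, E16.5 brain and the other 2 tables. The tables list different genes and were deposited separately, so levels in different tables are set side by side with no test, except for the brain tables, which list the same genes.

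**Figure D1:**
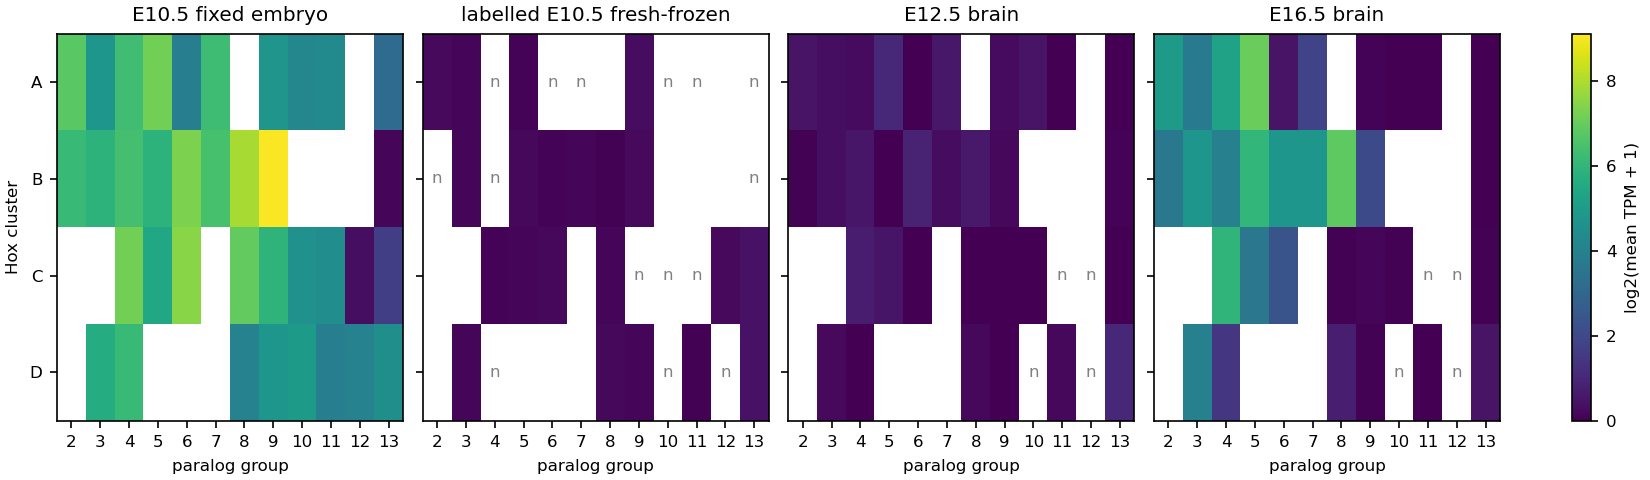
Mean level of the Hox genes of paralog groups 2 to 13 as log2(mean TPM + 1) (colour) by cluster (rows A to D) and paralog group (columns 2 to 13) in the 4 tables; n marks a gene that the table does not list and white a gene that the mouse lacks. All clusters are bright in the fixed embryo, 14 of the 20 members of paralog groups 2 to 8 have a mean of 5 TPM or more in E16.5 brain, and the other 2 tables are dark throughout, with no mean above 1.03 TPM.

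Regional markers were measured in the same libraries. In E12.5 brain the midbrain gene Otx2 stood at 176 ± 19.1 TPM (SD, n = 4) and the hindbrain interneuron gene Lbx1 at 1.52 ± 1.62 TPM. In E16.5 brain Otx2 stood at 10.2 ± 1.72 TPM and Lbx1 at 39.7 ± 5.35 TPM. Other markers of the same lists went the other way: Pax2 of the midbrain and isthmus stood at 6.70 TPM at E12.5 and 22.6 TPM at E16.5, and Lmx1b of the hindbrain at 37.6 and 25.2 TPM. The libraries labelled fresh-frozen E10.5 embryo went against that label: the summed level of 3 late neuron markers was 561 to 797 TPM there, against 12.1 to 17.2 TPM in the fixed embryo, and 3 heart markers summed to 2.66 to 23.7 TPM, against 1956 to 3347 TPM. They are called the libraries labelled fresh-frozen here.

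Hoxb9, a gene of the thoracic region, was the highest member in the fixed embryo. It read 692 and 438 TPM with IgG, 483 and 602 TPM with anti-G3BP1, and 510 and 473 TPM untreated. Every library of Hoxb9 lay above every library of Hoxb8, the next in order, at 242 ± 38.5 TPM (SD, n = 6). From Hoxb8 down to Hoxd1 each member overlapped its neighbour in the order of levels. Hoxc6, of the forelimb level, led cluster C with 226 and 149 TPM with IgG, 146 and 170 TPM with anti-G3BP1, and 165 and 212 TPM untreated. Hoxa5, of the neck and lung, led cluster A with 189 and 132 TPM with IgG, 127 and 128 TPM with anti-G3BP1, and 150 and 133 TPM untreated. Hoxd4, a hindbrain and neck gene, led cluster D with 91.9 and 64.1 TPM with IgG, 67.6 and 75.8 TPM with anti-G3BP1, and 57.7 and 53.3 TPM untreated. The first IgG library was the highest for each of these 4 leaders.

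The low end of each cluster was a gene of an end of the axis. Hoxa13, needed for digits and the genital tubercle, was lowest in cluster A, with 10.8 and 11.3 TPM with IgG, 8.81 and 10.1 TPM with anti-G3BP1, and 7.09 and 1.03 TPM untreated. Hoxd1 was lowest in cluster D, with 8.79 and 9.17 TPM with IgG, 6.37 and 10.2 TPM with anti-G3BP1, and 7.06 and 4.09 TPM untreated. Hoxb13, a gene of the tail, read 0.226 TPM in the second anti-G3BP1 library and 0.361 TPM in the first untreated library and was listed at 0 in the others. Hoxc12 read 0.720 TPM in the second IgG library and 0.772 TPM in the first untreated library and was listed at 0 in the others. These last 2 were the members under 1 TPM in all 6 libraries.

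Hox TPM in E16.5 brain came mostly from paralog groups 2 to 8. Paralog groups 2 and 3 gave 16.02 ± 1.81% of the Hox TPM (SD, n = 4), groups 4 and 5 gave 53.7 ± 4.58%, and groups 6 to 8 gave 29.24 ± 3.203%. Paralog group 1 gave 0.419 ± 0.142% and groups 9 to 13 gave 0.649 ± 0.157%. In the fixed embryo the same ranges held 11.6 ± 0.665%, 22.8 ± 0.788%, 33.0 ± 1.88%, 2.14 ± 0.103% and 30.4 ± 2.57% (SD, n = 6). Cluster B gave 48.2 ± 2.33% of Hox TPM in E16.5 brain and 48.9 ± 2.75% in the fixed embryo, and cluster D gave 3.04 ± 0.381% and 9.19 ± 1.82%.

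**Figure D2:**
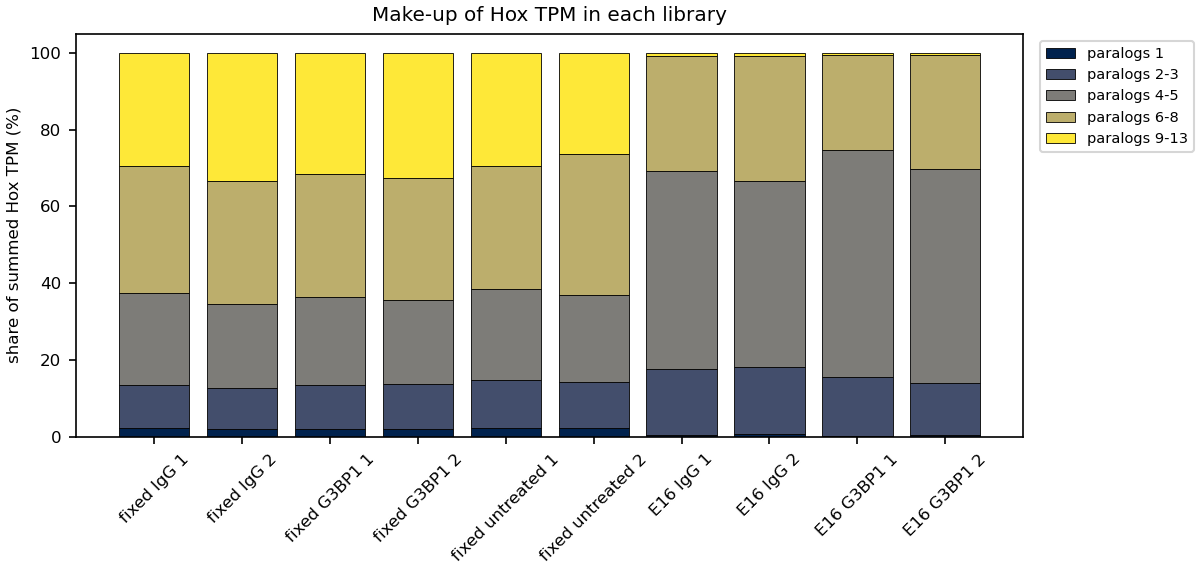
Share of the summed Hox TPM (y axis, %) held by paralog groups 1, 2 to 3, 4 to 5, 6 to 8 and 9 to 13 in each of the 6 fixed embryo libraries (left) and the 4 E16.5 brain libraries (right). Groups 9 to 13 hold 26.2 to 33.2% in the fixed embryo and 0.466 to 0.808% in E16.5 brain.

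Paralog groups 2 and 3 shape the hindbrain and the pharyngeal arches. Hoxa2, which gives the second arch its identity, read 39.5 and 32.2 TPM with IgG and 22.6 and 25.2 TPM with anti-G3BP1 in E16.5 brain. Hoxb3 read 30.1 and 25.6 TPM with IgG and 24.6 and 24.7 TPM with anti-G3BP1. Hoxd3 read 19.6 and 12.504 TPM with IgG and 12.9 and 13.6 TPM with anti-G3BP1. Hoxa2 and Hoxb3 were higher in each IgG library than in each anti-G3BP1 library, while the groups of Hoxd3 overlapped. Among the members given below, Hoxc5 separated the same way and Hoxa5 the opposite way. Levels in E16.5 brain were not tested between the antibodies, and the share of all genes that separate was not counted. Hoxa3 read 14.5 and 11.9 TPM with IgG and 10.6 and 13.05 TPM with anti-G3BP1, and Hoxb2 read 12.4 and 10.1 TPM with IgG and 11.47 and 12.2 TPM with anti-G3BP1.

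Paralog groups 4 and 5 act in the caudal hindbrain and the neck. Hoxa5 was the highest member in E16.5 brain, with 130 and 95.4 TPM with IgG and 139 and 152 TPM with anti-G3BP1. Hoxb5 read 63.3 and 50.1 TPM with IgG and 62.1 and 82.1 TPM with anti-G3BP1. Hoxc4 read 75.4 and 56.9 TPM with IgG and 53.0 and 58.1 TPM with anti-G3BP1. Hoxa5 and Hoxb5 stood in E16.5 brain at 0.903 and 1.12 times their mean level in the fixed embryo, the highest ratios of any member. Hoxa4 read 43.0 and 26.5 TPM with IgG and 37.8 and 39.6 TPM with anti-G3BP1. Hoxb4 read 17.99 and 11.4 TPM with IgG and 12.9 and 16.6 TPM with anti-G3BP1, and Hoxc5 read 14.03 and 12.7 TPM with IgG and 8.02 and 9.95 TPM with anti-G3BP1. Hoxd4, the leader of its cluster in the fixed embryo, stood at 1.72 ± 0.0942 TPM in E16.5 brain (SD, n = 4).

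Paralog groups 6 to 8 split by cluster. Hoxb8, known in spinal cord and in a lineage of microglia, read 128 and 118 TPM with IgG and 85.2 and 119 TPM with anti-G3BP1. Hoxb6 read 29.9 and 21.8 TPM with IgG and 22.1 and 32.9 TPM with anti-G3BP1, and Hoxb7 read 31.3 and 23.7 TPM with IgG and 20.3 and 31.0 TPM with anti-G3BP1. Their paralogs in other clusters were far lower: Hoxc8 at 0.0404 ± 0.0807 TPM, Hoxd8 at 0.707 ± 0.436 TPM, Hoxc6 at 4.19 ± 0.878 TPM, Hoxa7 at 2.60 ± 0.819 TPM and Hoxa6 at 0.402 ± 0.492 TPM (SD, n = 4). Hoxc8 stood in the fixed embryo at 119 ± 19.9 TPM and Hoxc6 at 178 ± 33.4 TPM (SD, n = 6). Every E16.5 library of Hoxb8 lay above every library of Hoxb5, the next in order.

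Paralog group 9 marked the lower end. Hoxb9, first in the order of the fixed embryo, stood at 3.17 ± 1.02 TPM in E16.5 brain (SD, n = 4), 0.00594 times its fixed embryo mean. No other member of groups 9 to 13 reached 1 TPM in any E16.5 library, and Hoxa11, Hoxa13, Hoxb13 and Hoxd11 were listed at 0 in all 4. At the other end of the clusters, Hoxd1 stood at 0.551 ± 0.256 TPM and Hoxb1, the gene of the fourth rhombomere, at 0.125 ± 0.150 TPM.

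Between E12.5 and E16.5 brain, 21 of the 35 listed members passed the filter of 1 TPM or more in 2 or more libraries, and 19 of them rose and 0 fell at an adjusted p under 0.05 (limma on log2(TPM + 1) with antibody as a covariate, Benjamini-Hochberg over all genes). Over all 20162 genes tested, 32.3% were called higher and 17.7% lower. The filter let most members through by their E16.5 level alone, so their count is not over all members. For those, a rise and a lack of overlap between the stages were favoured in advance. Hoxd13, with no E16.5 library above 0.553 TPM, passed by its E12.5 level, and Hoxa5 and Hoxb8 would have passed by theirs. In 18 of the 21 (85.7%) the 4 libraries of one stage lay outside the range of the other, as in 47.7% of all genes tested. Fewer cells of a type and less RNA per cell cannot be told apart in these bulk sections. Forebrain, midbrain and hindbrain markers differed between the stages too, as described below, and their part in the Hox difference was not tested.

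Hoxb8 and Hoxa5 had the largest differences. Hoxb8 read 0, 1.03, 1.11 and 0 TPM in the 4 E12.5 libraries (IgG, IgG, anti-G3BP1, anti-G3BP1) and rose by 6.29 ± 0.30 (SE) to E16.5 (limma adjusted p = 1.43e-06). Hoxa5 read 0, 1.45, 0 and 2.66 TPM at E12.5 and rose by 6.21 ± 0.41 (limma adjusted p = 6.34e-06). Hoxb5 was listed at 0 in all 4 E12.5 libraries and passed the test at a limma adjusted p of 3.51e-07. No E12.5 library of these 3 genes reached 3 TPM and no E16.5 library was under 50 TPM. Hoxc4 read 0, 2.12, 0 and 0.432 TPM at E12.5 and rose by 5.40 ± 0.34, and Hoxa4 rose by 4.99 ± 0.28.

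Counts by paralog group carry the same limit: most members passed the filter by their E16.5 level alone, which favoured a rise in advance. Over all genes tested, 32.3% were called higher. Paralog groups 2 and 3 rose in 5 of 5 members, by 3.44 (Hoxa3) to 4.57 (Hoxa2) on the log2(TPM + 1) scale. Groups 4 and 5 rose in 7 of 7, from Hoxd4, which was listed at 0 at E12.5, to Hoxa5. Groups 6 to 8 rose in 5 of 6 tested; the exception was Hoxd8, with a difference of 0.56 ± 0.33 (limma adjusted p = 0.182). Hoxb9 rose by 1.87 ± 0.28 (limma adjusted p = 5.40e-04). Hoxd13 stood at 1.002 TPM at E12.5 and 0.408 TPM at E16.5, a difference of -0.42 ± 0.36 (limma adjusted p = 0.368).

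**Figure D3:**
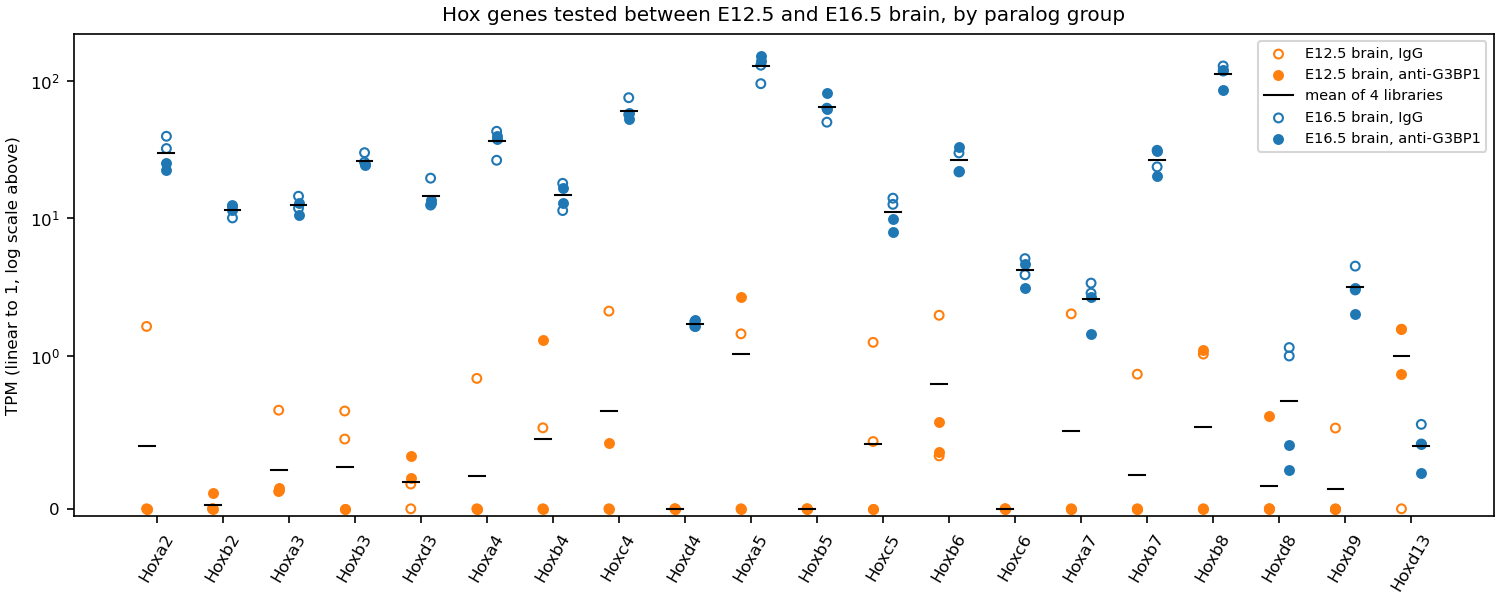
Level of the 20 tested Hox genes of paralog groups 2 to 13 in TPM (y axis, linear to 1 and log above) in the 4 E12.5 (orange) and 4 E16.5 (blue) brain libraries, open for IgG and filled for anti-G3BP1, with the mean of the 4 as a bar. The E16.5 points lie above the E12.5 points for all genes but Hoxa7, Hoxd8 and Hoxd13, where they overlap. Most of these genes passed the filter by their E16.5 level alone, which favoured this in advance.

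Of 12 non-coding RNAs of the clusters, 7 were tested, of which 6 rose and 1 fell. For these and for the cofactors below, the share over all genes tested was 32.3% called higher and 17.7% lower. Hoxb5os, Hoxb3os, Haglr and Hoxaas2 passed the filter by their E16.5 level alone, which favoured a rise in advance. Hoxb5os, listed at 0 in all E12.5 libraries, read 26.3 ± 6.13 TPM at E16.5 (SD, n = 4), Hoxb3os rose from 0.218 to 30.5 TPM and Haglr, the antisense RNA of cluster D, from 0.136 to 19.7 TPM. These overlap or adjoin Hoxb5, Hoxb3 and Hoxd3, and reads of the 2 strands may not be separated. Halr1 fell from 20.9 to 2.30 TPM. Of 9 TALE cofactors, the Pbx, Meis and Pknox homeodomain proteins that bind DNA with Hox proteins, 5 rose and 1 fell: Meis2 rose by 2.36 ± 0.14 and Pbx2 fell by 1.37 on the log2(TPM + 1) scale. Meis3, at 290 TPM at E12.5 and 236 TPM at E16.5, did not pass the test (limma adjusted p = 0.109), so cofactor transcripts were present at E12.5 while Hox transcripts were near 0.

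Among 10 tested hindbrain regulators and retinoid genes, 3 rose and 3 fell: Rarb, a retinoic acid receptor, rose by 2.07 ± 0.29 and Aldh1a2, which makes retinoic acid, by 2.28 ± 0.48. Fgf8, Gbx2 and Gdf11 fell. Of 10 chromatin regulators of the clusters, 2 rose and 5 fell, beside 32.3% and 17.7% of all genes tested. On the log2(TPM + 1) scale, Bmi1 rose by 0.61 and Rnf2 by 0.49. Ring1 fell by 1.93 and Ezh2, the methyltransferase of the Polycomb repressive complex, by 1.23. Hindbrain markers rose in 4 of 6 and fell in 1, midbrain and isthmus markers rose in 1 of 4 and fell in 3, and forebrain markers rose in 2 of 5 and fell in 2. The summed hindbrain markers were 36.4 to 61.1 TPM at E12.5 and 105 to 144 TPM at E16.5, and Egr2, which marks rhombomeres 3 and 5, stood at 0.486 ± 0.578 and 0.978 ± 0.344 TPM and did not pass the test. The hindbrain gene Atoh1 was listed at 0 in all E12.5 libraries. The 3 late neuron markers rose, from a sum of 43.2 to 65.1 TPM to one of 226 to 271 TPM. The 2 tested spinal cord and motor neuron markers, Isl1 and Lhx3, rose. Their part in the Hox difference was not tested.

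For the members that move together, promoters were read from a RefSeq table of GRCm38.p6 that holds 24 promoters of 22 members, each running from 250 bases before to 50 after the start. Hoxa5 and Hoxb8 are shown as the highest members in E16.5 brain and Hoxa13 as a member listed at 0 there, over the 100 bases before the start. Capitals mark any of 3 motifs searched on both strands: the TATA box TATAAA, the nuclear receptor half-site AGGTCA and the Pbx-Hox composite TGATNNAT. The motifs can overlap each other.
Hoxa5, chr6:52204588-52204687, minus strand: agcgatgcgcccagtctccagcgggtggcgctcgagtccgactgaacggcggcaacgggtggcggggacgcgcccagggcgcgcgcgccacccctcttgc
Hoxb8, chr11:96281805-96281904, plus strand: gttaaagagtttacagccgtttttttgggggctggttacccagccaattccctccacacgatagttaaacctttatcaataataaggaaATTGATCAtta
Hoxa13, chr6:52260881-52260980, minus strand: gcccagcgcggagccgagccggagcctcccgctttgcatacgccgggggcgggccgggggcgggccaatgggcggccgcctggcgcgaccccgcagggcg
TATAAA was present in 4 of 24 Hox promoters (16.7%) and in 13.6% of all 32851, AGGTCA in 7 (29.2%) and 16.3%, and TGATNNAT in 4 (16.7%) and 8.85%. Over its whole window Hoxb8 held TATAAA and TGATNNAT, Hoxa5 AGGTCA and Hoxa13 none of the 3, so the TATAAA of Hoxb8 and the AGGTCA of Hoxa5 lie outside the bases shown. These are counts of letters in a window and not sites of binding.

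IgG sections of the fixed embryo were compared with untreated sections. Of 39 members 37 passed the filter and 0 were called, among 0 of 19144 genes called (0% higher and 0% lower, limma on log2(TPM + 1)). At an unadjusted p under 0.05 there were 14 members and 2658 genes. The median difference was 0.36 on the log2(TPM + 1) scale over the members and 0.14 over all genes. It was positive in 34 of 37 members and in 13101 of 19144 genes. The members of paralog groups 9 to 13 stood higher with IgG in 14 of 14 tested, with a median of 0.96, against 0.16 over the 23 members of groups 1 to 8. The lowest limma adjusted p was 0.196, shared by Hoxa7, Hoxd9 and Hoxd10.

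Hoxd9 read 32.4 and 42.9 TPM with IgG and 15.3 and 14.9 TPM untreated, a difference of 1.25 ± 0.17. Hoxd10, of the lumbar motor columns, read 35.2 and 44.1 TPM with IgG and 20.6 and 18.5 TPM untreated, a difference of 0.97 ± 0.15. Hoxa7 read 102 and 104 TPM with IgG and 55.3 and 61.4 TPM untreated, a difference of 0.81 ± 0.13. In these 3 genes the IgG and untreated libraries did not overlap, as in 18 of the 37 members (48.6%) and 44.1% of all genes. Hoxa13 had the largest difference, 1.57 ± 0.59, which rested on the second untreated library at 1.03 TPM beside 7.09 TPM in the first.

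That second untreated library had the lowest coverage of the 6. Over all kept editing sites it had a mean of 33.8 reads per site, against 93.5 to 205 in the others. The part of coverage in the Hox difference was not tested. The second untreated library was also the lowest of the 6 for the limb bud genes Pitx1 and Tbx4. Pitx1 read 74.5 and 132 TPM with IgG, 73.0 and 63.7 TPM with anti-G3BP1, and 46.1 and 29.2 TPM untreated. Tbx4 read 16.3 and 30.9 TPM with IgG, 17.96 and 12.6 TPM with anti-G3BP1, and 10.1 and 4.48 TPM untreated. The 4 limb bud markers summed to 53.4 to 206 TPM over the 6 libraries. All 4 were positive for IgG over untreated, with a median difference of 1.18. The 3 liver and yolk sac markers summed to 445 and 346 TPM with IgG, 344 and 364 TPM with anti-G3BP1, and 688 and 746 TPM untreated. The part of the limb bud, liver and yolk sac markers in the Hox difference was not tested. Without the first untreated library, 7 members were called (Hoxa9, Hoxa10, Hoxa11, Hoxa13, Hoxd9, Hoxd10 and Hoxd11) among 533 genes, with the lone untreated library assumed to vary like the other groups; without the second, 0 were called.

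**Figure D4:**
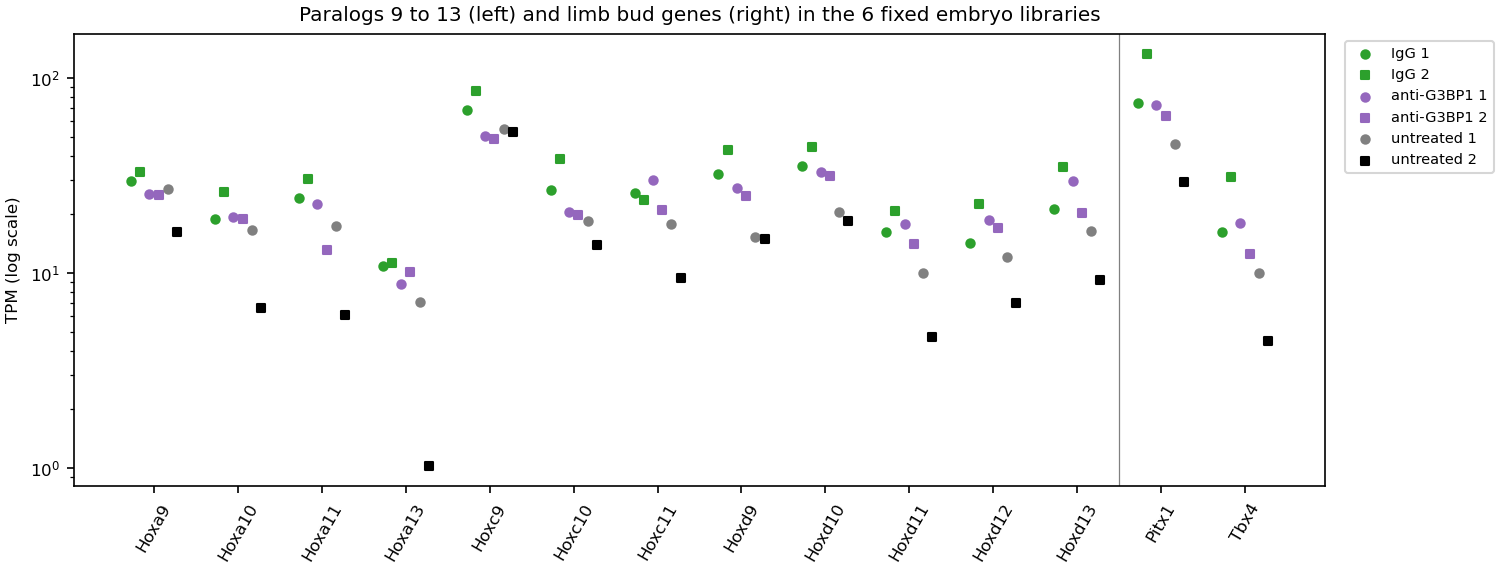
Level in TPM (y axis, log scale) of 12 members of paralog groups 9 to 13 and of the limb bud genes Pitx1 and Tbx4 in the 6 fixed embryo libraries, by group (colour) and replicate (circle for 1, square for 2). The second untreated library (black squares) is the lowest point for every gene drawn but Hoxc9, where the anti-G3BP1 libraries are lower. Of the tested members of these groups that are not drawn, Hoxb9 is lowest in the second IgG library and Hoxc13 in the first untreated library.

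Anti-G3BP1 sections were compared with IgG sections in the fixed embryo; this comparison and the previous one share the IgG libraries. Of 37 members tested 0 were called, among 0 of 19144 genes (0% higher and 0% lower, limma), and 5 members and 1153 genes had an unadjusted p under 0.05. The median difference was -0.21 over the members and -0.12 over all genes. It was positive in 2 of 37 members and in 5622 of 19144 genes. Hoxa7 read 74.2 and 61.4 TPM with anti-G3BP1, a difference of -0.60 ± 0.13 (limma adjusted p = 0.376), and Hoxc9 read 50.1 and 48.8 TPM against 68.7 and 85.7 TPM with IgG, a difference of -0.62 ± 0.13 (limma adjusted p = 0.391). The cluster non-coding RNAs had 0 of 10 called in either fixed embryo comparison (limma), with 3 and 1 at an unadjusted p under 0.05.

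Edited sites in members were listed in the fixed embryo and E16.5 brain tables. The E12.5 brain and fresh-frozen tables listed no site under a member, where member levels were near 0. The fixed embryo table held 391 site lines in 33 members, of which 276 in 22 members had 10 or more reads in every library. The E16.5 table held 232 in 16 members, of which 205 in 13 members passed. All 276 and 205 sites had the expected base in the GENCODE transcript, and 12 sites passed in both tables. Of the 276 fixed embryo sites, 148 lay in 3′ UTRs and 122 in coding sequence. Of the 205 E16.5 sites, 168 and 36 did. Pooled over libraries, 0.571% of reads at coding sites and 0.328% of reads at 3′ UTR sites were edited in the fixed embryo, and 0.702% and 0.410% in E16.5 brain. A single Hoxb3 site, edited in untreated libraries too, held 73 of the 348 edited reads at fixed embryo coding sites.

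Most of these sites were edited in 1 library. Of the 276, 227 had edited reads in 1 library, 45 in 2 or more and 4 in none. In E16.5 brain 118 sites were edited in 1 library, 27 in 2 or more and 60 in none. A listed value of 2 edited reads was more frequent than 1: 254 against 46 values in the fixed embryo and 114 against 41 in E16.5 brain. A listed 0 may therefore stand for a single edited read, and no upper limit is given for it.

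Over the kept Hox sites of the fixed embryo, edited reads made up 0.407 ± 0.0430% of covering reads with IgG, 0.456 ± 0.122% with anti-G3BP1 and 0.518 ± 0.212% untreated (SD, n = 2 each). Over all kept sites the shares were 0.382 ± 0.0278%, 0.485 ± 0.00907% and 0.477 ± 0.124%. The Hox shares overlapped between the 3 groups. Untreated, the Hox share was 0.367% in the first library, at a mean of 96.6 reads per Hox site. It was 0.668% in the second, at 30.4 reads per Hox site. The part of coverage in these shares was not tested. In E16.5 brain the Hox share was 0.366 ± 0.0311% with IgG and 0.521 ± 0.0449% with anti-G3BP1, a ratio of 1.42, and the share over all sites was 0.222 ± 0.00764% and 0.360 ± 0.0200%, a ratio of 1.62. Both anti-G3BP1 libraries lay above both IgG libraries at Hox sites and at all sites in E16.5 brain. By kind of edit, the Hox share of A-to-G sites in E16.5 brain was 0.546 ± 0.0750% with IgG and 0.920 ± 0.285% with anti-G3BP1, and that of C-to-T sites 0.299 ± 0.0144% and 0.367 ± 0.0534%. Both kinds lay higher in each anti-G3BP1 library than in each IgG library.

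**Figure D5:**
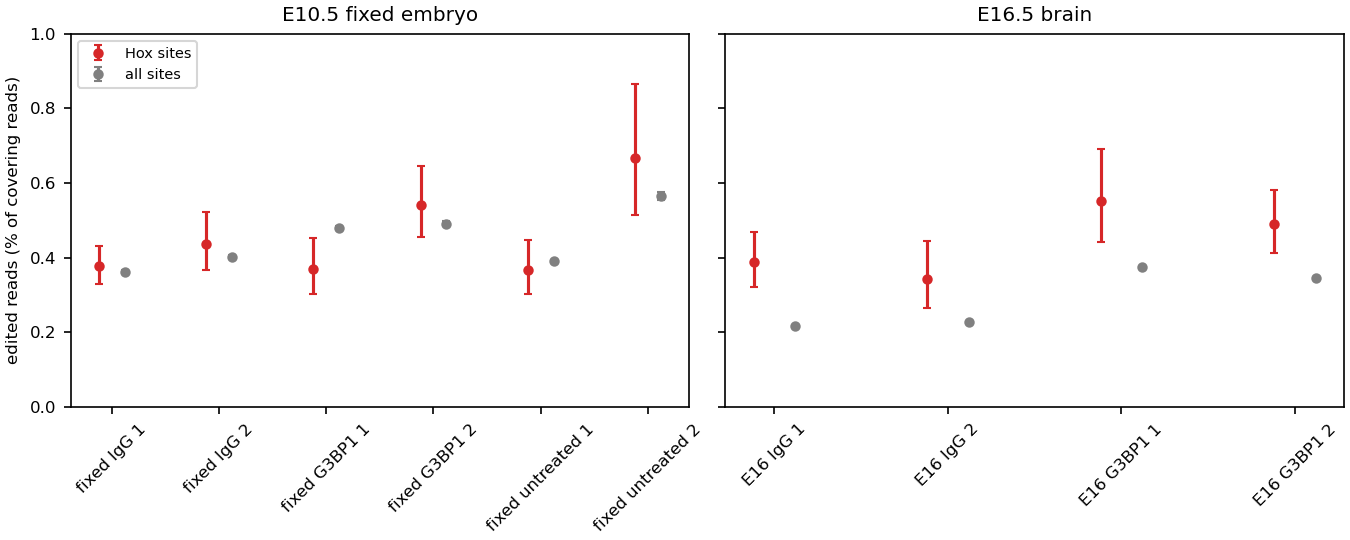
Edited reads as a percentage of covering reads (y axis) over the kept Hox sites (red, 276 in the fixed embryo and 205 in E16.5 brain) and over all kept sites (grey) in each library, with 95% Wilson intervals for counting error only. In E16.5 brain the Hox share is 0.388 and 0.344% in the IgG libraries and 0.553 and 0.489% in the anti-G3BP1 libraries, and in the fixed embryo the groups overlap.

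Per gene, anti-G3BP1 was compared with IgG by a quasi-binomial logistic model over genes with 50 or more reads at kept sites in every library compared. In E16.5 brain 13 members were tested and 0 called by this model, with 0 at an unadjusted p under 0.05 and 0 called by limma on the empirical logit, while 6.65% of 11741 genes were called higher and 0% lower. That background of 781 genes rests on all 4 libraries: without any 1 of them, 0 to 157 genes were called. The log2 odds ratio was positive in 12 of 13 members and in 9119 of 11741 genes. Its median was 0.49 over the members and 0.65 over all genes. In the fixed embryo 21 members were tested and 0 called by the model, with 0 at an unadjusted p under 0.05 and 0 called by limma, against 0.0147% of 6794 genes called higher and 0% lower; the median was 0.12 and 0.33. For IgG against untreated, which shares the IgG libraries, 20 members were tested and 0 called by the model, with 0 at an unadjusted p under 0.05 and 0 called by limma, as for 0 of 5596 genes (0% higher and 0% lower).

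The median member had 4 edited reads per library in E16.5 brain, against 7 over all genes tested, and 5 in the fixed embryo comparison with anti-G3BP1, against 2 over all genes. Standard errors of the 13 members in E16.5 brain were 0.47 to 2.21 on the log2 odds scale.

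The 5 members with the most covering reads in E16.5 brain were Hoxa5, Hoxb8, Hoxb5, Hoxb3 and Hoxc4. Hoxa5 had 8 of 4171 and 27 of 7941 reads edited with anti-G3BP1 and 19 of 7248 and 4 of 3973 with IgG, a log2 odds ratio of 0.49 ± 0.54 (SE). Hoxb8 had 9 of 2003 and 20 of 4973 with anti-G3BP1 and 17 of 5571 and 8 of 3992 with IgG, a log2 odds ratio of 0.67 ± 0.55. The shares of Hoxb8 did not overlap between the antibodies and those of Hoxa5 did; 3 of the 13 members (23.1%) and 47.5% of all genes did not overlap. Hoxb5 had 12 of 2526 and 24 of 4944 with anti-G3BP1 and 16 of 4068 and 12 of 2464 with IgG, a log2 odds ratio of 0.16 ± 0.50. Hoxb3 had 18 of 2353 and 16 of 3316 against 24 of 4146 and 13 of 2557, and Hoxc4 had 7 of 979 and 4 of 1707 against 7 of 2188 and 4 of 1404. The groups of the last 3 overlapped.

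The 5 members with the most covering reads in the fixed embryo were Hoxb9, Hoxc6, Hoxb8, Hoxb2 and Hoxd4. Hoxb9 had 3 of 3780 and 20 of 3700 reads edited with anti-G3BP1 and 27 of 9526 and 6 of 3640 with IgG, a log2 odds ratio of 0.30 ± 0.53 (SE). Hoxc6 had 8 of 2950 and 12 of 2908 against 20 of 7393 and 14 of 3290, and Hoxb8 had 5 of 3182 and 8 of 2643 against 18 of 6182 and 5 of 2729. The 2 anti-G3BP1 libraries of Hoxb9 lay below and above both IgG libraries. Hoxb2 had 7 of 2813 and 12 of 2295 against 20 of 5322 and 13 of 2780. Hoxd4 had 9 of 2166 and 10 of 1907 against 20 of 5065 and 5 of 2417, with no overlap and a log2 odds ratio of 0.49 ± 0.60, where 28.6% of members and 31.2% of all genes did not overlap. The other 16 members lay between -1.50 (Hoxb5) and 3.76 (Hoxa3), each with fewer reads.

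Single sites were looked at where every library had 20 or more reads and both libraries of a group were edited at 1% or more. There were 7 such sites in 6 members in the fixed embryo and 11 in 8 members in E16.5 brain, the latter all in 3′ UTRs. The sequences around 5 of them are shown in the sense of the transcript with the edited base in capitals, the first from coding sequence and the others from 3′ UTRs.
Hoxb3, chr11:96345637, plus strand: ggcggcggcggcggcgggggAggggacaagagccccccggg
Hoxb5, chr11:96305745, plus strand: gtgggaagggagctAgggaagggtcaaag
Hoxb3, chr11:96347564, plus strand: tttttgtattatttAtccccctacattat
Hoxa5, chr6:52202082, minus strand: tgttgtagaggtgaCttgataagacacaa
Hoxc4, chr15:103036751, plus strand: ttgtgttttttggaCtgaatttacttgat
The first 3 are edited with either antibody and the last 2 with anti-G3BP1 alone.

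The Hoxb3 coding site was the most edited, with 10.3% of all edited reads at fixed embryo Hox sites. It is A-to-G at the third base of codon 180 and leaves the residue unchanged. Edited reads were 9 of 90 and 17 of 81 with IgG, 19 of 88 and 5 of 66 with anti-G3BP1, and 17 of 98 and 6 of 32 untreated. The lowest share was 7.58% (95% Wilson interval 3.28 to 16.54%) in the second anti-G3BP1 library and the highest 21.6% (14.3 to 31.3%) in the first, so the untreated libraries lay inside the range of the treated ones. Without this site the fixed embryo Hox shares were 0.369 ± 0.0106% with IgG, 0.409 ± 0.159% with anti-G3BP1 and 0.452 ± 0.208% untreated (SD, n = 2 each). The other tables did not list this site.

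In E16.5 brain the Hoxb5 site had 4 of 130 and 5 of 84 reads edited with IgG and 2 of 81 and 6 of 135 with anti-G3BP1, and the Hoxb3 site in the 3′ UTR had 7 of 108 and 1 of 65, and 4 of 64 and 5 of 90. The Hoxa5 site had 0 of 277 and 0 of 151 with IgG and 2 of 147 and 3 of 272 with anti-G3BP1, and the Hoxc4 site 0 of 95 and 0 of 91, and 2 of 52 and 3 of 98. Of the 11 sites, 3 were edited with anti-G3BP1 alone, in Hoxa5, Hoxc4 and Hoxd3, and 2 with IgG alone, in Hoxb8 and Hoxc4. Of the 7 fixed embryo sites, 1 was edited with anti-G3BP1 alone, in Hoxb7, 2 with IgG alone, in Hoxb2 and Hoxc6, and 1 in untreated libraries alone, in Hoxb8. Sites were not tested singly.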

How the data were processed

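Poly(A) RNA libraries (20, in 10 groups of 2 from the labels) were analysed from 4 tables of TPM and 4 tables of site counts deposited by the authors. Per the file headers each site has 2 counts per library, of covering reads and of edited reads. The builds are mm10 and GRCm38 per the submitters' processing notes, which name as tools featureCounts 2.0.1 and Subread, GATK 4.5.0.0, Picard 3.1.1, HISAT2 2.2.1 and BWA 0.7.17. What each tool did, and how sites were called, is not given in the sources used here.

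Members and gene lists were chosen with earlier results of these data known. TPM was tested with limma 3.58.1 (eBayes with trend, R 4.3.3) on log2(TPM + 1), keeping genes that reached 1 TPM in 2 or more libraries of the fit; fold differences are on that scale, which understates low genes. The 3 fixed embryo groups shared a fit. Repeated site lines were removed. Edited reads were summed per gene over sites that all libraries of the table covered with at least 10 reads, and each gene whose sites had 50 or more reads in all libraries compared was fitted with a quasi-binomial logistic model with 0.25 edited and 0.25 unedited reads added, the dispersion moderated by squeezeVar and kept at 1 or more. P-values are two-sided with Benjamini-Hochberg adjustment over all genes, called under 0.05. The tests were run on simulated data with changed genes. A log2 odds change of 1 was recovered in 18% of them for anti-G3BP1 and 5% for IgG against untreated in the fixed embryo. In E16.5 brain it was recovered in 10%. A change of 2 was recovered in 99%, 78% and 96%. The changed genes had more edited reads than most members, so 0 members called does not show that editing is equal. For TPM, a log2 change of 1 was recovered in 48 to 74% and of 2 in 90 to 96%.

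Mean covering reads per kept Hox site were 30.4 to 210 per library in the fixed embryo and 68.0 to 132 in E16.5 brain; read totals behind TPM are unknown. Values are given for every library for members with 5 TPM or more in E12.5 or E16.5 brain or the fresh-frozen groups, for the highest and lowest detected member of each cluster in the fixed embryo, and for the 5 members with most covering reads. No 2 libraries held identical values. Alternatives are in the closing section. Of the columns of values, 0 belonged to no sample. Some genes and sequences are not reported here.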

Additional observations from a re-analysis of the deposited data

Results flagged for a closer look

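The edited share of Hoxb6 moved in opposite directions with anti-G3BP1 in the 2 tables. In the fixed embryo both anti-G3BP1 libraries lay above both IgG libraries, with a log2 odds ratio of 0.62 ± 0.78 (SE). In E16.5 brain both lay below, with a log2 odds ratio of -0.68 ± 1.29, from 1 of 87 and 3 of 174 edited reads with anti-G3BP1 and 5 of 187 and 2 of 87 with IgG. Neither passed the test, and the difference between the tables was not tested. Of the 13 members tested in both tables, 7 had log2 odds ratios of opposite sign. Among those 7, Hoxb6 was the one whose groups did not overlap in either table. Within a single table, the antibodies did not overlap in 31.2% of all genes tested in the fixed embryo and 47.5% in E16.5 brain. How many of all genes move in opposite directions without overlap in both tables was not counted.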

How the results depend on the processing

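The count of members called between the brain stages was 19 in every setting that left out 1 library and with a pseudocount of 0.1. It was 20 with no filter on low values. Over all genes, 8385 to 10358 were called with 1 library left out. Most members passed the filter by their E16.5 level alone, which favoured a kept sign in advance. All 248 single-member values under the alternatives run kept the sign of the reported difference. Signs turned in 22 of 296 such values for IgG against untreated and in 31 of 333 for anti-G3BP1 against IgG in the fixed embryo. For editing they turned in 18 of 150 in E16.5 brain, and in the fixed embryo in 30 of 227 for IgG against untreated and 46 of 246 for anti-G3BP1 against IgG. For IgG against untreated in the fixed embryo, leaving out 1 library gave 0 to 7 members called and 0 to 533 genes; the 7 came without the first untreated library, and the cause was not tested. For anti-G3BP1 against IgG in the fixed embryo 0 were called in every setting, including 1 added after the data were seen, without the second untreated library. No member passed the editing test under any alternative run: other read minimums per site (5 and 20) or gene (20), A-to-G or C-to-T sites alone, leaving out sites edited in 50% or more of reads, limma on the empirical logit, a replicate block and each library left out. The alternatives for expression were a pseudocount of 0.1, no filter, rescaling without mitochondrial and globin genes and a replicate block. With the replicate block, 19 members were called between the brain stages and 0 in each fixed embryo comparison. Deviations of same-numbered libraries correlated at -0.04 to 0.04 over genes. Each value rests on the difference between the libraries of each group, so it cannot tell whether same-numbered libraries share an animal or a batch. No alternative could be run for the members in the E12.5 brain and fresh-frozen editing tables, which list no site in them.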
